A study of Mus musculus with 28 samples.

Results

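The experiment adds the transcription factor Hand2 to a mixture of GATA4, MEF2C and TBX5 (GMT) that is used to turn mouse fibroblasts into cardiomyocyte-like cells. Its members, chosen by their sample titles, are the 3 cultures that received Hand2 with GMT (HGMT, replicates 1 to 3) and the 3 GMT cultures scaled together with them (replicates 3 to 5). They are 6 of the 28 arrays of the series. All 6 cultures started as mouse embryonic fibroblasts and were infected with a lentivirus for the doxycycline-dependent activator rtTA and one for TroponinT-GCaMP-Zeo, a reporter that makes a calcium indicator and a zeocin resistance gene from a troponin T promoter. Each factor came on its own lentivirus under a tetO promoter and was switched on with 2 µg/mL doxycycline. Cells were selected with 300 µg/mL zeocin for 7 days, and total RNA was collected 21 days after transduction from independent biological replicates. Both groups were thus selected for cells that use a troponin T promoter; how complete the selection was is not measured here. The other groups used below are NGMT (GMT with NKX2.5, replicates 4 to 6), HNGMT (NGMT with Hand2, replicates 1 to 3), and 0F, fibroblasts that were not transduced and received no factor (3 arrays), beside GMT replicates 1 and 2. In the main fits DMT (MYOCD in place of GATA4, replicates 1 to 3) and NGMT replicates 1 to 3 served only to estimate the spread. The source label describes 0F, like every other sample, as selected cells, whereas its title and the protocol describe untreated fibroblasts, which is how it was used.

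Hand2 is a basic helix-loop-helix transcription factor. It binds DNA as a dimer with a ubiquitous E protein at E-boxes, short sites of the form CANNTG, and CATCTG is a form that Hand proteins are known to favour. In the embryo it is needed for the right ventricle and the second heart field that feeds it, and it also acts in the epicardium, the posterior limb bud, the branchial arches and sympathetic neurons. The troponins, myosins, calcium-store proteins and ion channels listed below are the parts of the contractile machinery that reprogramming mixtures are meant to turn on.

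Array correlations over 11426 tested genes were 0.988 to 0.997 within GMT and within HGMT, and 0.969 to 0.976 between the groups. No 2 arrays were identical. The fibroblast markers Col1a1, Col1a2, Col3a1, Postn, Thy1, Pdgfra and Ddr2 lay above the array median on all 6 arrays, and of the 8 cardiomyocyte markers 5 did so, while Ttn lay below it on all 6. Skeletal muscle markers Myod1, Myog and Mylpf, macrophage markers Adgre1, Ptprc and Lyz2, and the noradrenergic enzymes Dbh and Th lay below the array median on all 6 arrays. In the same lists Tnnt3 (skeletal muscle), Cd68 (macrophage) and Stmn2 (neural) lay above it on all 6, and the macrophage marker Csf1r on 1 GMT array. Of the 8 cardiomyocyte markers 3 were called lower in HGMT and 1 higher (mean log2 signal 8.62 to 8.86 in GMT and 8.26 to 8.34 in HGMT). Of the 7 fibroblast markers 1, Postn, was called higher. Of the 4 smooth muscle markers 1, Tagln, was called lower. Acta2 and Tagln lay above the array median on all 6 arrays, and Cnn1 and Myh11 below it. Markers of 3 further cell types also moved with the groups. All 4 adipocyte markers were called higher in HGMT (mean log2 signal 7.82 to 8.10 in GMT and 8.62 to 8.97 in HGMT), and of the 4 mesothelial markers 3 were called higher and 1 lower (7.40 to 7.52 and 8.16 to 8.37). Of the 4 endothelial markers Cdh5 and Tek were called higher (mean of the 4 markers 5.75 to 5.87 and 6.36 to 6.47). Both lay below the array median on all 3 GMT arrays and above it on all 3 HGMT arrays. Pecam1 and Kdr did not pass the filter on low signal and were not tested. The part of any of these cell types in the other differences was not tested. The RNA is from whole cultures, so fewer cells of a type and less RNA per cell cannot be told apart in any value below.

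Hand2 itself read 7.17, 7.42 and 7.45 (log2 signal) on the 3 GMT arrays and 9.97, 10.15 and 10.09 on the 3 HGMT arrays. The groups did not overlap, and the difference was 2.72 ± 0.09 log2 (SE, n = 3 and 3), or 6.6-fold. The sources used here do not say whether the probes read the delivered or the cells' own Hand2 RNA. The 3 factors present in both groups read alike: Gata4 was at 7.25, 7.09 and 7.04 in GMT and 7.03, 7.34 and 7.28 in HGMT, and Mef2c and Tbx5 differed by 0.20 ± 0.09 and by −0.00 ± 0.13 (adjusted p = 0.17 and 0.99, limma). In GMT replicates 1 and 2 and in 0F, Gata4 averaged 7.23 and 7.00, Mef2c 8.98 and 9.75, and Tbx5 7.92 and 8.26. Mef2c and Tbx5 were thus not read as higher where delivered. Like readings therefore do not show that equal amounts of the factors were delivered. Cardiac troponin T, Tnnt2, the gene that lends its promoter to the selection reporter, was at 12.71, 12.57 and 12.68 in GMT and 12.67, 12.68 and 12.62 in HGMT. Its difference of 0.01 ± 0.09 did not pass the test, and the groups overlapped. The factor NKX2.5, delivered in NGMT and HNGMT per the labels, was not read as higher there: Nkx2-5 was at 7.92 to 8.02 in NGMT and 7.92 to 8.07 in HNGMT, against 7.96 to 8.04 in HGMT and a mean of 7.94 ± 0.10 (SD, n = 3) in GMT. The presence of NKX2.5 therefore rests on the labels wherever it is named below.

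Adding Hand2 changed 2000 of 11426 genes, 17.5% (limma, Benjamini-Hochberg adjusted p under 0.05): 947 rose, 8.29% of those tested, and 1053 fell, 9.22%. Most changes were small. At least 2-fold changes were called for 206 genes, 118 higher and 88 lower, and at least 4-fold changes for 22 higher and 15 lower. The median difference over all genes was −0.01 log2, and the median half-width of a 95% interval was 0.17. The 3 HGMT arrays lay wholly above or wholly below the 3 GMT arrays in 40.7% of all tested genes, so a lack of overlap alone is common here. The spread was estimated from 15 arrays. One of them, HNGMT replicate 1, stands apart from its own group, and without it 3362 genes were called, 1495 higher and 1867 lower.

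The largest rise was in Inmt, which encodes an enzyme that methylates indoleamines such as tryptamine. It read 5.58, 5.47 and 5.85 in GMT and 10.79, 11.12 and 11.09 in HGMT, a difference of 5.36 ± 0.13 log2, or 41.2-fold. All 3 GMT arrays lay below the array median and all 3 HGMT arrays far above it. Aldh3a1, an aldehyde dehydrogenase, moved from 7.30, 7.31 and 7.40 to 10.67, 10.77 and 10.74 (3.39 ± 0.08 log2, 10.5-fold). Pcolce2, an enhancer of procollagen C-proteinase, moved from 7.95, 8.15 and 7.97 to 11.31, 11.48 and 11.25 (3.32 ± 0.10). Gpc3, a cell-surface heparan sulphate proteoglycan that restrains embryonic growth, moved from 9.07, 9.21 and 9.37 to 12.27, 12.46 and 12.40 (3.16 ± 0.11). In each of these genes the gap between the lowest HGMT and the highest GMT array was many times the spread within a group. The next in order were Casq2 (2.77), the heparin-binding growth factor Ptn (2.60), the basement-membrane protein Frem1 (2.41), the thrombin inhibitor Serpind1 (2.23), the adhesion protein Mpzl2 (2.18), the cardiac T-box factor Tbx20 (2.15), Gpm6a (2.12), the tachykinin gene Tac2 (2.12), the protease gene Htra4 (2.11) and Necab1 (2.10), all log2 differences with SE of 0.08 to 0.23.

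The largest fall was in Hsd3b6, an enzyme of steroid hormone synthesis, from 9.26, 8.76 and 9.29 in GMT to 5.75, 5.44 and 5.42 in HGMT (−3.56 ± 0.18 log2, 11.8-fold lower). Cck, the gene of the peptide hormone cholecystokinin, went from 10.44, 10.08 and 10.69 to 7.23, 7.24 and 6.97 (−3.26 ± 0.19). Gpr165, an orphan receptor gene, went from 8.63, 8.67 and 9.35 to 5.75, 5.73 and 5.74 (−3.14 ± 0.15). The HGMT arrays of Hsd3b6 and Gpr165 lay below the array median, whereas all GMT arrays lay above it. Fibin fell by 3.13 ± 0.21 and the inner-ear matrix gene Coch fell by 2.30 ± 0.09 on the log2 scale. The nuclear-body gene Sp100 fell by 2.46 ± 0.12, though its family has near-identical copies in the mouse that probes may not tell apart. Mmp9, a gelatinase, had the widest GMT range of the 15 largest falls, at 8.84, 9.96 and 10.27, against 7.12, 7.45 and 7.20 in HGMT (−2.44 ± 0.33). The naming rule took only genes whose groups do not overlap. Also among the 15 largest falls were 2610528A11Rik (−2.50), Smpx (−2.20), the calcium buffer Pvalb (−2.19), Myl7 (−2.10), the epithelial cytokine Tslp (−2.09), the oestrogen-responsive gene Greb1 (−2.09), Plac8 (−2.07) and the ecto-nucleotidase Nt5e (−2.04).

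**Figure D1:**
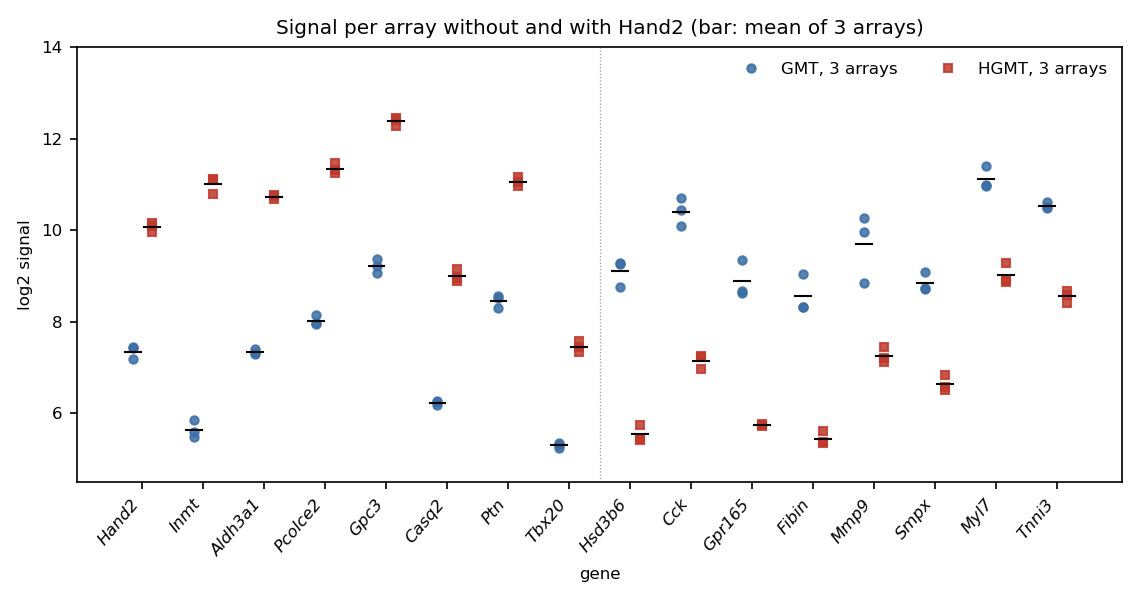
Log2 signal on each array (vertical axis) for 16 genes (horizontal axis), with 3 GMT arrays as blue circles, 3 HGMT arrays as red squares and a bar at each group's mean. Hand2 and 7 genes that rose are left of the dotted line and 8 that fell are right of it; in all 16 the 2 groups do not overlap. Levels are not comparable between genes.

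The promoters of the strongest rises and falls are shown because Hand2 is a DNA-binding factor and E-boxes are its known type of site. Each is 250 bases before to 50 bases after the RefSeq start (build GRCm38.p6), read 5′ to 3′ on the gene's strand, with every CANNTG in capitals. Aldh3a1 has no entry in the promoter table. The windows are chr6:55174941-55175240 (minus strand) for Inmt, chr9:95637378-95637677 (plus strand) for Pcolce2, chr3:98814394-98814693 (minus strand) for Hsd3b6 and chr9:121495645-121495944 (minus strand) for Cck.
Inmt: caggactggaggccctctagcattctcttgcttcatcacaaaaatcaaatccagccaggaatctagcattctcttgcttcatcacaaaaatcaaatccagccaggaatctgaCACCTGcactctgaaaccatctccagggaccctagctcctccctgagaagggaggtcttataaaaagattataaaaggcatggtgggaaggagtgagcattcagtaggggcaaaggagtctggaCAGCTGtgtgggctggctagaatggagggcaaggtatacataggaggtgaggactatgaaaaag
Pcolce2: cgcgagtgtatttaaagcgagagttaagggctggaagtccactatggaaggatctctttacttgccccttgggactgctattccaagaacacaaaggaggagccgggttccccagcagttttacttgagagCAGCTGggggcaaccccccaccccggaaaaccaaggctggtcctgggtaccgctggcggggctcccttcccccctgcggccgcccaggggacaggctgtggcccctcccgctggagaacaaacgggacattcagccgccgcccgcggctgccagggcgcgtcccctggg
Hsd3b6: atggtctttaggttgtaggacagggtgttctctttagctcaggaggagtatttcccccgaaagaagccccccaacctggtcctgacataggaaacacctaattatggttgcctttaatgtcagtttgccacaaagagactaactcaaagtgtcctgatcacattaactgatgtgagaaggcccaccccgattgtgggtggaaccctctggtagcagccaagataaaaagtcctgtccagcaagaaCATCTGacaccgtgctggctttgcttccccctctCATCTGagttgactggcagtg
Cck: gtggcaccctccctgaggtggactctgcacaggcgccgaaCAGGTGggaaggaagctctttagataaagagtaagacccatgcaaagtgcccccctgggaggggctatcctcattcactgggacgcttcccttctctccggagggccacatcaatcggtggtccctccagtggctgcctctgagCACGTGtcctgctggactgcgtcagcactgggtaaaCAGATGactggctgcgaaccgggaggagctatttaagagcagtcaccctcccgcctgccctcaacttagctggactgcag
Inmt held 2 E-boxes, CACCTG at −138 and CAGCTG at −14, counted from the start. Pcolce2 held 1, CAGCTG at −119. Neither has the CATCTG form. Hsd3b6 held 2, both CATCTG, at −5 and 30. Cck held 3, of which CAGATG at −30 is CATCTG read on the other strand. The windows of Gpc3 and Gpr165, next in order, held 0 and 2 E-boxes, and 0 of the CATCTG form.

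Across the table, CATCTG on either strand was present in 14.7% of 979 windows of genes that rose and 12.1% of 1030 windows of genes that fell. It was present in 11.3% of 11681 windows of all tested genes and in 17.2% of all 32851 windows. For genes changed at least 2-fold the shares were 18.5% of 108 windows for rises and 24.4% of 82 for falls, with exact 95% intervals of 11.7 to 27.1% and 15.6 to 35.1%. These windows came from 84 and 68 genes. The intervals take windows of the same gene as independent, so they do not measure the spread over genes. CANNTG, which includes CATCTG, was found in 67.0% of windows of genes that rose, 65.0% of those that fell, 63.5% of all tested and 72.3% of all windows. GC content also differed between these sets: it was 61.0% in the windows of tested genes, 56.4% and 55.6% in those of 2-fold rises and falls, and 53.8% in all windows. It was 60.5% for genes that rose and 59.7% for those that fell. Its part in the shares was not tested, and a match shows letters in a window, not binding.

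The contractile genes split. Of 29 tested members of the sarcomere list 5 rose and 6 fell (37.9% called, beside 17.5% of all genes), and the list's median difference was −0.04. The lists here and below were written with earlier results of these data known. Over all 39 of them 350 of 941 tested genes were called. Among the falls, Myl7, the atrial regulatory light chain, went from 10.99, 10.97 and 11.40 to 8.87, 8.92 and 9.29 (−2.10 ± 0.23), and Myl4, the atrial essential light chain, from 12.30, 12.22 and 12.13 to 10.54, 10.10 and 10.46 (−1.85 ± 0.11). The lowest GMT array exceeded the highest HGMT array by more than a log2 unit in both. Tnni3, cardiac troponin I, fell by 1.98 ± 0.11, Smpx, a small muscle protein under mechanical load, by 2.20 ± 0.16, and the intermediate filament gene Des and the M-band gene Myom2 by 1.65 ± 0.10 and 1.44 ± 0.12. Against these, Fhl2, a LIM protein of the heart, rose from 9.50, 9.53 and 9.60 to 11.02, 11.06 and 11.12 (1.52 ± 0.06), and Pdlim3 by 1.01 ± 0.09. Myom1 and Cmya5 rose by 0.44 and 0.36. Myh6, the alpha myosin heavy chain, rose by 0.62 ± 0.14, from 6.82, 6.53 and 6.75, all below the array median, to 7.43, 7.12 and 7.39. Actc1, cardiac actin, gave 10.11, 10.02 and 10.21 against 10.06, 9.94 and 10.21, and Actn2 and Ttn differed by −0.07 ± 0.09 and 0.06 ± 0.09; like Tnnt2 they did not pass.

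The chamber lists share several of these genes. Called were 70% of the tested atrial-enriched and 33.3% of the tested ventricular-enriched genes, beside 17.5% of all genes. Of 10 tested genes of the atrial-enriched list 3 rose and 4 fell: besides Myl7 and Myl4, the natriuretic peptide genes Nppa and Nppb fell by 1.51 and 0.43, while Myh6, Pam (0.43) and Stard10 (0.42) rose. Nppa read 7.56, 7.58 and 7.87 in GMT and 6.13, 6.38 and 5.98 in HGMT, from above to below the array median. In the ventricular-enriched list 0 of 6 rose and 2 fell, Tnni3 and the gap junction gene Gja1 (−0.30 ± 0.05).

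The calcium-handling list had 7 rises and 3 falls among 31 tested genes (32.3% called, beside 17.5% of all genes), and a median of −0.05. Casq2, the cardiac calsequestrin that stores calcium in the sarcoplasmic reticulum, rose from 6.24, 6.27 and 6.17 to 8.96, 9.15 and 8.88 (2.77 ± 0.08, 6.82-fold). It was the largest rise of any gene on the 5 contractile, chamber, calcium and channel lists, and its GMT arrays were all below the array median. Its partners in the release complex moved the other way: Trdn, triadin, fell by 0.73 ± 0.18 and Ryr2, the release channel, from 7.47, 7.38 and 7.86 to 7.24, 7.19 and 7.17 (−0.37). The L-type channel gene Cacna1c and the phosphodiesterase gene Pde3a rose by 0.52 ± 0.11 and 0.59 ± 0.12. The count of falls depended on 1 array, with 1 fall without HGMT replicate 3 and 7 in the fit without HNGMT replicate 1. Of 14 tested ion channel and gap junction genes 3 rose and 4 fell (50% called). The pacemaker channel gene Hcn4 went from 7.04, 6.95 and 6.88 to 7.81, 7.82 and 7.73 (0.83 ± 0.12), and the repolarizing channel gene Kcnh2 from 7.86, 7.73 and 8.20 to 7.17, 7.16 and 7.30 (−0.72 ± 0.11). Within the Popeye family, which binds cyclic AMP, Popdc2 rose by 0.63 ± 0.13 while Popdc3 and Bves fell by 0.73 and 0.59 on the log2 scale.

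**Figure D2:**
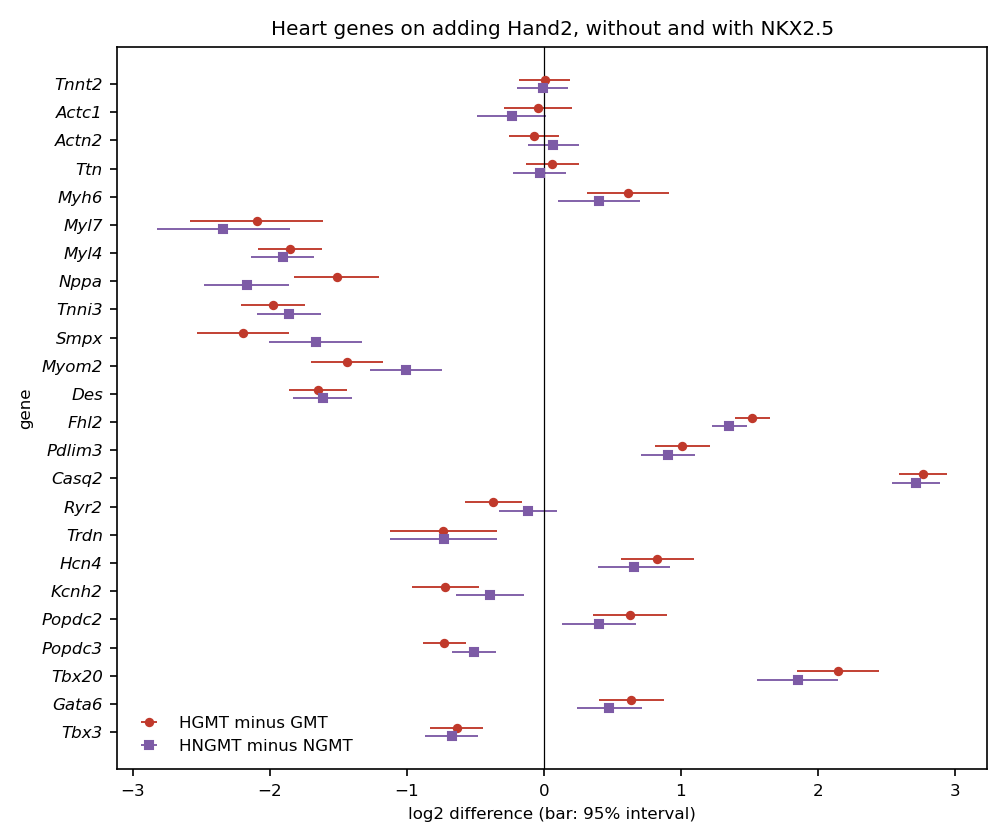
Log2 difference on adding Hand2 (horizontal axis, bars are 95% intervals) for 24 heart genes (vertical axis), in cultures labelled as lacking NKX2.5 (red circles, HGMT minus GMT) and as carrying it (purple squares, HNGMT minus NGMT), 3 arrays in each group. Tnnt2, Actc1, Actn2 and Ttn sit near 0, Casq2, Tbx20 and Fhl2 lie far to the right, and Myl7, Myl4, Tnni3, Smpx, Des and Nppa lie far to the left in both comparisons.

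Among 34 tested cardiac transcription factors 3 rose and 1 fell, 11.8% called and so below the 17.5% of all genes. They were Hand2, Tbx20, which went from 5.32, 5.24 and 5.35 to 7.57, 7.45 and 7.33 (2.15 ± 0.14), Gata6, from 8.04, 8.15 and 8.17 to 8.62, 8.88 and 8.77 (0.64 ± 0.11), and Tbx3, a repressor of chamber genes, from 8.06, 8.21 and 8.23 to 7.53, 7.58 and 7.48 (−0.63 ± 0.09). Tbx20 thus started below the array median on all 3 GMT arrays. In the fit without HNGMT replicate 1 the list had 6 rises and 3 falls, and without HGMT replicate 1 it had 2 falls. Of 17 helix-loop-helix genes, E proteins and Id genes tested, Hand2 included, 2 rose and 2 fell (23.5% called). Id2, an inhibitor of E-protein dimers, rose by 0.39 ± 0.05, and Bhlhe41 and Id4 fell by 0.74 and 0.39. Without GMT replicate 3, GMT replicate 4 or HGMT replicate 3 that list had 1 fall, and Id4 lost its call each time. Without GMT replicate 5 there were 5 rises, and 4 in the fit without HNGMT replicate 1.

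In the list for limb, branchial arch and second heart field patterning, tissues where Hand2 acts, 5 of 31 tested genes rose and 4 fell, with a median of 0.00. Called were 29%, beside 17.5% of all genes. Grem1, a BMP antagonist that patterns the limb bud, fell from 11.81, 11.72 and 12.11 to 10.55, 10.73 and 10.57 (−1.26 ± 0.13), and the homeobox gene Dlx5 rose by 0.57 ± 0.12. Without HGMT replicate 3 the list had 3 rises and 2 falls, without GMT replicate 4 it had 2 falls, and in the fit without HNGMT replicate 1 it had 8 rises. Of 11 tested neural and sympathetic genes 2 rose and 3 fell (45.5% called). Slc6a2, the noradrenaline transporter, rose from 6.18, 6.11 and 6.30 to 7.23, 7.09 and 6.91 (0.88 ± 0.11), and the progenitor filament gene Nes fell by 1.59 ± 0.11. The noradrenaline-synthesizing enzymes Th and Dbh stayed below the array median. The list had 4 rises in the fit without HNGMT replicate 1. Of 19 tested Hox genes 0 rose and 3 fell (15.8% called, beside 9.22% of all genes called lower and 17.5% called either way). Hoxc8 fell by 1.00 ± 0.13, Hoxc6 by 0.91 ± 0.13 and Hoxc9 by 0.41 ± 0.08 on the log2 scale.

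Genes of the epicardium and other mesothelia rose more often than they fell: 10 of 23 tested rose, 2 fell, and the median difference was 0.23 beside −0.01 for all genes. Called were 52.2%, beside 17.5% of all genes. The 11 not called included Tbx18 (0.10), Aldh1a1 (0.23), Sema3d (−0.24) and Krt8 (−0.02), and Tcf21 did not pass the filter on low signal. The rises included Dcn (0.30), which is also on the fibroblast identity list. Wt1, a zinc-finger factor that marks the epicardium, went from 6.29, 6.06 and 6.09 to 7.79, 7.65 and 7.35 (1.45 ± 0.12), and Msln, mesothelin, from 8.82, 8.89 and 8.86 to 10.21, 10.32 and 10.17 (1.38 ± 0.12). Both groups were tight and well separated. Upk3b rose by 0.89 ± 0.14, Cdh3 by 1.61 ± 0.14, and Mpzl2 and Gpm6a by the values above, and the retinoic acid enzyme gene Aldh1a2 by 0.86 ± 0.16. Upk1b and the keratin gene Krt19 went the other way (−1.75 ± 0.13 and −0.52). The mean log2 signal over the list's 32 genes on the array was 7.84 to 7.94 in GMT and 8.20 to 8.26 in HGMT. Leaving out 1 array gave 9 or 10 rises.

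Extracellular matrix lists differed in the share of genes called. Of all tested genes 17.5% were called, 8.29% higher and 9.22% lower. The shares called were 42% for glycoproteins and proteoglycans, 27.3% for collagens and 22.7% for glypicans and heparan sulphate. They were 48.5% for proteases and inhibitors and 40% for cartilage, bone and tendon. In the glycoprotein and proteoglycan list 24 of 69 tested rose and 5 fell (median 0.14), with Pcolce2 and Frem1 first, then the leucine-rich proteoglycans Fmod and Prelp, which bind collagen fibrils. Prelp went from 9.68, 10.16 and 9.67 to 11.76, 11.88 and 11.97 (2.03 ± 0.14), whereas Fmod was spread over 7.54, 8.50 and 9.23 in GMT against 10.33, 10.49 and 10.74 (2.10 ± 0.34). The count of rises in this list was 13 without GMT replicate 3 and 14 without HGMT replicate 3. In the cultures labelled as carrying NKX2.5 the list had 16 rises and 12 falls among the same 69 genes. The difference between the 2 comparisons' counts was not tested. Of 33 collagen genes 6 rose and 3 fell: Col14a1 rose by 1.25 ± 0.12 and Col10a1, a cartilage collagen, fell by 1.18 ± 0.09. Of 22 tested glypican and heparan sulphate genes 4 rose, led by Gpc3 and the sulphotransferase gene Ndst4 (1.60 ± 0.28), and Sdc3 fell. Of 33 proteases and inhibitors 7 rose and 9 fell, and besides Mmp9 the falls included the urokinase gene Plau (−0.94 ± 0.08), Adamts12 (−1.07 ± 0.20) and Adamts6 (−0.86 ± 0.18). The cartilage, bone and tendon list had 6 rises and 2 falls among 20, with Comp, a tendon and cartilage matrix protein, at 1.55 ± 0.18 and Phex at 1.65 ± 0.21; it had 1 fall without GMT replicate 4, GMT replicate 5, HGMT replicate 2 or HGMT replicate 3. Of 33 fibroblast identity genes 6 rose and 0 fell (18.2% called, beside 8.29% of all genes called higher and 17.5% called either way). N-cadherin, Cdh2, was at 1.05 ± 0.08 and Clec3b at 0.88 ± 0.12. Postn (0.35 ± 0.11) lost its call without any 1 of GMT replicates 3 and 4 or HGMT replicates 1, 2 and 3. In the fit without HNGMT replicate 1 the list had 11 rises.

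**Figure D3:**
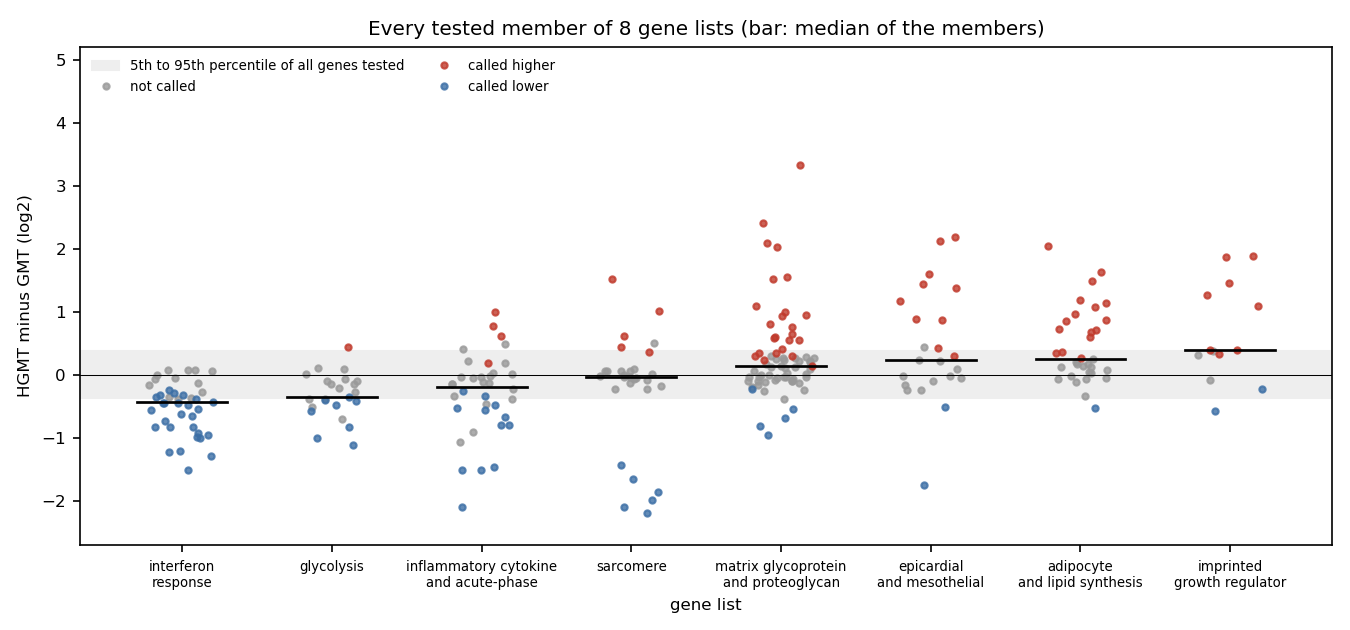
HGMT minus GMT in log2 units (vertical axis) for every tested member of 8 gene lists (horizontal axis), red where called higher, blue where called lower and grey where not called, with a bar at the median of the members and a grey band for the 5th to 95th percentile of all tested genes (−0.37 to 0.38). Most interferon-response genes lie below 0 and none is red, sarcomere genes have arms on both sides, and imprinted, adipocyte and mesothelial genes have their medians above 0.

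Of 40 tested interferon-response genes 27 fell, 13 did not pass the test and 0 rose (67.5% called, beside 9.22% of all genes called lower), and the median difference was −0.44. Oas2, a sensor of double-stranded RNA, read 10.73, 10.51 and 10.40 in GMT and 8.78, 8.99 and 9.35 in HGMT (−1.51 ± 0.20). Irf7, the factor that amplifies the interferon response, read 10.61, 10.19 and 10.12 against 8.78, 8.99 and 9.48 (−1.23 ± 0.16). HGMT replicate 3 was the highest of its group for both genes and still lay below every GMT array. Rsad2 fell by 1.29 ± 0.11, Oas3 by 1.21 ± 0.18 and the immunoproteasome gene Psmb8 by 0.83 ± 0.09. Leaving out 1 array gave 22 to 28 falls and 0 rises. In the comparison labelled as carrying NKX2.5, which uses other arrays, the list also had 27 falls and 0 rises.

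Secreted inflammatory genes fell in part. Called were 44.4% of the tested cytokine and acute-phase genes, 38.5% of complement and 20% of macrophage genes, beside 17.5% of all genes. Of 36 tested cytokine and acute-phase genes 12 fell and 4 rose (median −0.19). Tslp read 10.83, 10.28 and 10.64 in GMT and 8.30, 8.81 and 8.36 in HGMT; the alarmin Il33 fell by 1.51 ± 0.11, the chemokine Ccl5 by 1.50 ± 0.18 and Ptgs2, the inducible prostaglandin synthase, by 1.47 ± 0.08. Orm1 (1.00), Steap4 (0.77) and the chemokine Cxcl12 (0.61) were among the rises, which numbered 2 without HGMT replicate 3. Complement had 3 rises and 2 falls among 13 genes, C2 falling by 1.32 ± 0.09 and the membrane inhibitor Cd59a rising by 0.80 ± 0.07; it had 1 rise without any 1 of 5 arrays (GMT replicates 3 and 5 and HGMT replicates 1, 2 and 3), and 1 fall without GMT replicate 3 or 4 or any 1 HGMT array. Of the 5 macrophage genes tested only Trem2 was called (−1.06 ± 0.13). The mean over 5 macrophage markers was 6.66 to 6.87 in GMT and 6.63 to 6.72 in HGMT, and Adgre1, Ptprc and Lyz2 were below the array median on all 6 arrays. Cd68 was above it on all 6, at 9.37 to 9.74 and 9.15 to 9.24, and Csf1r on 1 GMT array.

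Of 33 tested in the adipocyte and lipid synthesis list 16 rose and 1 fell, and the median was 0.25, beside −0.01 for all genes. Called were 51.5%, beside 8.29% of all genes called higher and 17.5% called either way. Car3, an abundant carbonic anhydrase of fat cells, went from 9.78, 10.72 and 10.21 to 12.42, 12.05 and 12.39 (2.05 ± 0.30), the lipid-droplet gene Plin1 from 7.38, 7.78 and 7.38 to 8.59, 8.35 and 8.49 (0.97 ± 0.13), and Pparg, the master factor of fat-cell differentiation, from 9.23, 9.25 and 9.22 to 9.91, 9.75 and 9.82 (0.59 ± 0.08). HGMT replicate 2 was the lowest of its group in all 3 genes. The hormone gene Adipoq (1.18 ± 0.30), Retn (1.49 ± 0.39) and the fatty-acid transporter Cd36 (1.63 ± 0.47) varied more between arrays, and each lost its call when GMT replicate 3 or HGMT replicate 3 was left out; Adipoq also without HGMT replicate 1, and Cd36 also without GMT replicate 5 or HGMT replicate 1. The mean over the list's 38 genes on the array was 8.49 to 8.65 in GMT and 8.88 to 9.07 in HGMT. Leaving out 1 array gave 11 to 17 rises. In the cultures labelled as carrying NKX2.5 the list had 5 rises and 3 falls among the same 33 genes; the difference between the 2 counts was not tested.

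Imprinted growth regulators, genes read from 1 parental copy, had 8 rises and 2 falls among 13 tested, with a median of 0.39. Called were 76.9%, beside 8.29% of all genes called higher and 17.5% called either way. Mest went from 9.89, 10.04 and 9.06 to 11.58, 11.55 and 11.50 (1.88 ± 0.20), the growth factor gene Igf2 from 10.61, 10.86 and 10.59 to 11.86, 12.13 and 11.88 (1.27 ± 0.13) and Dlk1 from 8.52, 8.71 and 7.98 to 9.24, 9.56 and 9.71 (1.10 ± 0.20). Every HGMT array was above every GMT array for these genes, and the HGMT arrays of Mest were nearly level. Dio3 (1.87 ± 0.22) and Slc38a4 (1.45 ± 0.15) also rose. The falls were Phlda2 (−0.58) and Ndn (−0.23), and the list had 1 fall without GMT replicate 3 or 4. Within the wider IGF axis 2 of 22 rose and 4 fell (27.3% called), with the IGF-binding-protein protease genes Pappa2 (−1.32 ± 0.25) and Htra1 (−0.93 ± 0.19) among the falls. Without any 1 of GMT replicates 3 and 4 and HGMT replicates 1, 2 and 3 the list had 1 rise, and in the fit without HNGMT replicate 1 it had 4.

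In the glycolysis list 8 of 23 fell and 1 rose (median −0.35). Called were 39.1%, beside 17.5% of all genes. The muscle isoform genes Eno3, from 8.98, 8.86 and 8.99 to 7.84, 7.89 and 7.77 (−1.11 ± 0.05), and Pgam2 (−1.00 ± 0.08) fell most, followed by hexokinase 2, Hk2 (−0.83 ± 0.13), and the glucose transporter Slc2a1 (−0.58 ± 0.09), while Slc2a3 rose by 0.44. In the oxidative list 7 of 50 fell and 0 rose, 14% called beside 9.22% of all genes called lower and 17.5% called either way. The heart fatty-acid-binding protein gene Fabp3 went from 9.74, 9.34 and 9.51 to 7.61, 7.57 and 7.77 (−1.88 ± 0.15), and Pdk4, which restrains pyruvate oxidation, fell by 1.16 ± 0.08; the other 5 falls were of 0.32 or less. That count was 3 without GMT replicate 3, GMT replicate 4 or HGMT replicate 3, 4 without HGMT replicate 2, and 17 in the fit without HNGMT replicate 1. In the xenobiotic, aldehyde and amine list, which holds Inmt and Aldh3a1, 14 of 47 rose and 7 fell (44.7% called), but the rises were 9 without HGMT replicate 2 and 8 without HGMT replicate 3. The falls there were 2 without GMT replicate 3 or HGMT replicate 2 and 3 without HGMT replicate 3. They included the oxidative-stress genes Txnrd1 (−0.44), Gclc (−0.41), Srxn1 (−0.39) and Nqo1 (−0.36).

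Signalling lists were mixed. Called were 48.1% of the tested BMP genes, 32% of TGF-beta and activin and 41.2% of Wnt genes, beside 17.5% of all genes. The shares were 42.4% for FGF, PDGF and neuregulin and 36.8% for axon guidance. Of 27 tested BMP genes 10 rose and 3 fell: the ligand genes Bmp4 (0.76 ± 0.12) and Gdf6 (0.68 ± 0.18, not called without GMT replicate 3 or HGMT replicate 3) rose, as did the inhibitors Chrdl1 (0.89 ± 0.12) and Smad6 (0.54), while Grem1 fell; without GMT replicate 4 the falls were 5. In the TGF-beta and activin list 2 of 25 rose and 6 fell. The activin subunit genes Inhba and Inhbb fell by 0.97 ± 0.10 and 0.78 ± 0.11; falls numbered 3 without GMT replicate 4 or 5 and 2 without HGMT replicate 1 or 2, and the response gene Tagln (−0.48 ± 0.13) was not called without any of those 4 arrays. Of 34 Wnt genes 8 rose and 6 fell. The secreted inhibitor gene Wif1 went from 6.32, 6.27 and 6.15 to 7.76, 7.67 and 7.76 (1.48 ± 0.08), and Sfrp4, another secreted antagonist, from 8.14, 8.43 and 9.69 to 7.16, 7.23 and 7.13 (−1.58 ± 0.29). GMT replicate 5 was far above the other GMT arrays for Sfrp4. Wnt rises numbered 5 without GMT replicate 3, HGMT replicate 2 or HGMT replicate 3, and falls 3 without HGMT replicate 3. Of 33 FGF, PDGF and neuregulin genes 6 rose and 8 fell, with the feedback inhibitor Spry1 at 1.25 ± 0.17 and Vegfa at −0.76 ± 0.17. Axon guidance genes had 10 rises and 4 falls among 38, led by Sema3e (1.67 ± 0.12), Plxna4 (1.46 ± 0.12), Unc5c (1.34 ± 0.10) and Slit3 (1.26 ± 0.14); rises numbered 6 without GMT replicate 3, and falls 7 in the fit without HNGMT replicate 1.

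Of 30 endothelial genes on the array 16 passed the filter on low signal and were tested. Of these, 6 rose and 1, Erg, fell (−0.91 log2). Cdh5, VE-cadherin, went from 5.79, 5.81 and 5.58 to 7.24, 6.94 and 6.95 (1.31 ± 0.08), and the receptor genes Flt1 and Tek rose by 1.22 ± 0.14 and 1.03 ± 0.11. Of the 4 endothelial markers, Cdh5 and Tek thus rose. Pecam1 and Kdr were below the array median on all 6 arrays, at 5.71 to 5.81 and 5.13 to 5.50, and were not tested. Of 33 smooth muscle genes 4 rose and 5 fell (27.3% called), with the integrin gene Itga8 at 1.91 ± 0.10 and the kinase gene Mylk at 1.39 ± 0.16 against Des. Falls there numbered 3 without HGMT replicate 2, and rises 8 and falls 9 in the fit without HNGMT replicate 1. Skeletal muscle genes had 1 rise and 4 falls among 18 (27.8% called). Notch genes had 2 rises and 0 falls among 16 (12.5% called, beside 8.29% of all genes called higher and 17.5% called either way). They had 6 rises and 1 fall in the fit without HNGMT replicate 1. Cell cycle genes had 9 rises and 0 falls among 31 (29% called), with cyclin A2, Ccna2, from 6.57, 6.60 and 6.22 to 7.34, 7.33 and 7.19 (0.82 ± 0.11). Without a filter on low signal 19 cell cycle genes rose.

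**Figure D4:**
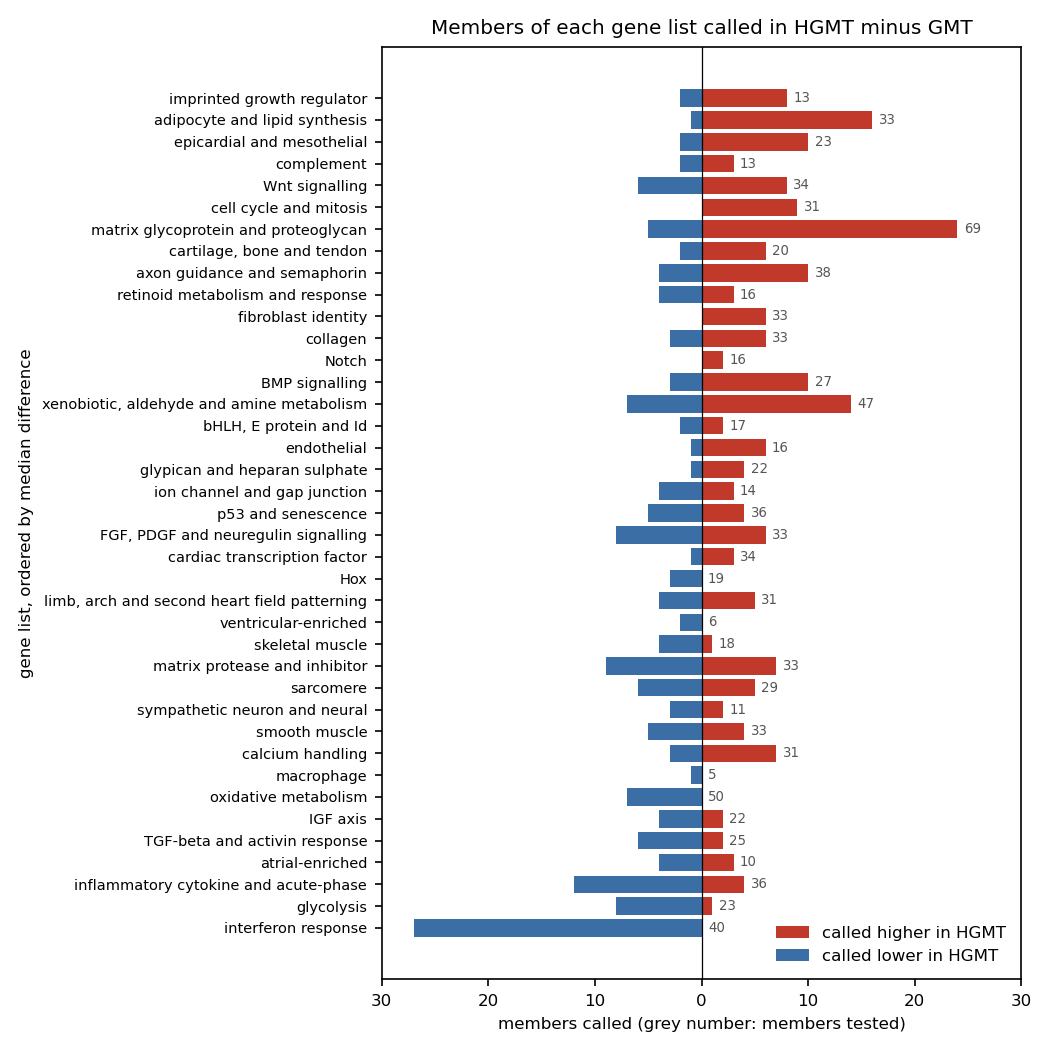
Number of members called higher (red, to the right) and lower (blue, to the left) in HGMT minus GMT for each of 39 gene lists (vertical axis, ordered by the median difference of the tested members), with the number tested in grey; 8.29% and 9.22% of all tested genes were called higher and lower. The interferon list has 27 falls and 0 rises, and the matrix glycoprotein list 24 rises and 5 falls.

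The same factor was also added in cultures labelled as carrying NKX2.5, whose Nkx2-5 signal was not higher (above), in arrays not shared with the comparison above, although both took their spread from the same fit. HNGMT minus NGMT called 2104 of 11426 genes (18.4%), 559 higher (4.89%) and 1545 lower (13.5%). Of its calls 26.6% were rises, against 36.7% when only the 6 arrays compared were fitted (825 calls) and 35.3% after quantile normalization. Without NGMT replicate 4 or 6 it called 1267 or 1307 genes. Hand2 itself rose by 2.69 ± 0.09, from 7.30, 7.37 and 7.27 to 9.80, 10.05 and 10.15. Rises common to both comparisons numbered 485, which is 51.2% of those without NKX2.5 and 86.8% of those with it, and common falls 796, 75.6% and 51.5%. No gene was called in opposite directions. Of the 118 genes that rose at least 2-fold in HGMT 112 were called higher in HNGMT too, and of the 88 that fell at least 2-fold 87 were called lower.

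Inmt rose by 5.05 ± 0.13 with NKX2.5 and by 5.36 ± 0.13 without it, a difference of −0.31 (95% interval −0.72 to 0.09), and Casq2 by 2.72 and 2.77, a difference of −0.05 (−0.30 to 0.20). Myl7 fell by 2.34 and 2.10 (difference −0.24, −0.93 to 0.44). Over the 206 genes called at least 2-fold without NKX2.5, which were chosen for their size there, the ratio of the difference with NKX2.5 to that without had a median of 0.83 and a range of 0.41 to 1.44, and 180 of the 206 differences were larger without it. The test of the difference between the 2 Hand2 effects called 0 of 11426 genes (limma, 0%), with 496 at an unadjusted p under 0.05 and a smallest adjusted p of 0.80. The median half-width of its 95% interval was 0.24 log2. Nppa, Fabp3 and Ccl5, picked after their values were seen, had intervals clear of 0 before adjustment. Nppa was at 10.81, 10.21 and 10.62 in NGMT and 8.23, 8.42 and 8.48 in HNGMT, so it fell by 2.17, and without NKX2.5 it fell by 1.51 (difference −0.66, −1.10 to −0.22). The difference for Fabp3 was 1.01 (0.55 to 1.47) and for Ccl5 0.89 (0.35 to 1.44), both falling less with NKX2.5; the adjusted p of all 3 was 0.80.

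To place these changes against reprogramming itself, GMT replicates 1 and 2 were compared with 0F, on arrays not used above. This contrast holds transduction and selection as well as the factors, and it called 7023 of 11426 genes (61.5%), 4358 higher (38.1%) and 2665 lower (23.3%). Of the 1053 genes that Hand2 lowered, 714 (67.8%) were higher in GMT than in 0F and 134 (12.7%) lower. Of the 947 it raised, 463 (48.9%) were lower in GMT than in 0F and 273 (28.8%) higher. Among the genes that fell at least 2-fold, 70 of 88 (79.5%) had been higher in GMT. Genes that gained with GMT and fell with Hand2 included Hsd3b6 (5.97 log2 in GMT minus 0F), Cck (5.04), Myl7 (5.08), Myl4 (4.69), Ptgs2 (6.24), Tnni3 (2.71) and Nppa (2.79). Genes that were lower in GMT and rose with Hand2 included Ptn (−4.96), Mest (−4.63), Car3 (−7.21), Inmt (−2.71) and Gpc3 (−1.20). Other genes moved the same way in both comparisons: Casq2 (1.95), Aldh3a1 (2.15), Tbx20 (0.99) and Gpm6a (4.12) were higher in GMT than in 0F and rose further with Hand2, and Sp100 (−2.79) was lower and fell further. By list, 22 of 29 tested sarcomere genes and 18 of 23 tested mesothelial genes were higher in GMT than in 0F. Lower in GMT were 29 of 33 tested adipocyte genes and 12 of 13 tested imprinted genes. Members that did not pass the filter, in which 0F had no part, are not in these counts.

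**Figure D5:**
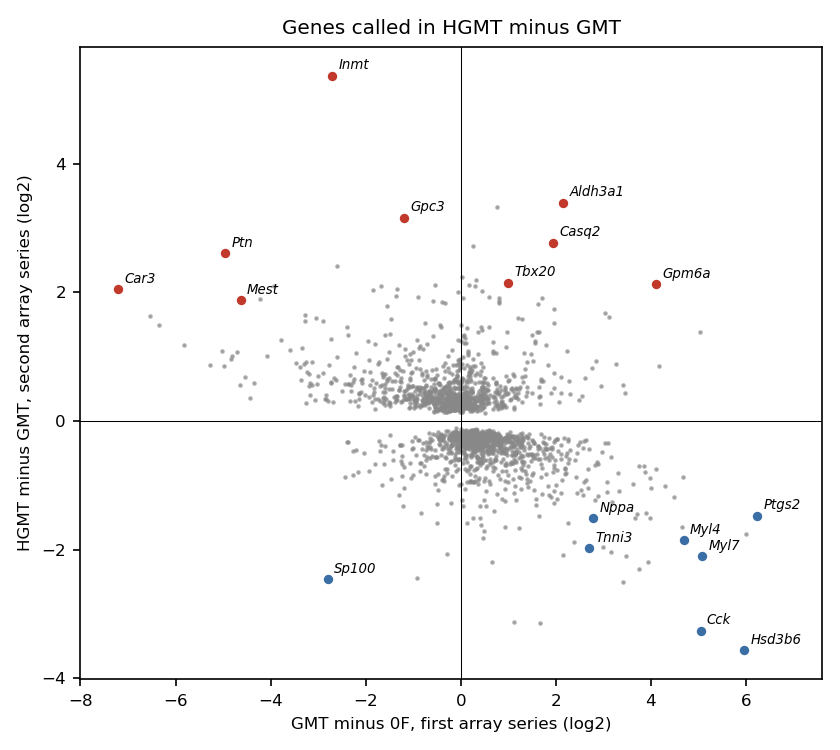
Each grey point is 1 of the 2000 genes called in HGMT minus GMT, plotted by its log2 difference in GMT minus 0F (horizontal axis, 2 GMT and 3 0F arrays) and in HGMT minus GMT (vertical axis, 3 and 3 arrays); named genes are red where they rose and blue where they fell with Hand2. Hsd3b6, Cck, Myl7 and Ptgs2 lie at the lower right, Car3, Ptn and Mest at the upper left, and Casq2, Aldh3a1 and Gpm6a at the upper right.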

How the data were processed

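Total RNA of the cultures was labelled with biotin and hybridized to single-channel arrays, per the labels' protocols. The authors deposited 1 matrix of log2 signal for 35556 probe sets on 28 arrays (3.757941 to 14.46866). MAS5 is the only tool named in the submitters' processing notes, with the steps of summarizing and scaling not given in the sources used here. The sorted values of the arrays form 3 sets. GMT replicates 3 to 5, HGMT, NGMT replicates 4 to 6, HNGMT and DMT replicates 1 to 3 share a set of 15 arrays. Another set of 8 arrays holds 0F, GMT replicates 1 and 2 and NGMT replicates 1 to 3. All columns were used (0 not used).

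From these values, 1 probe set per gene was kept, that of highest mean among probe sets with 1 symbol in the platform's annotation (21789 with 1, 1621 with several, 12146 with none), and 11426 of 19938 genes above the array median on at least 3 of the 15 arrays were tested. A gene low in 1 group could thus be tested through groups where it was high. No 0F array was among the 15. Symbols were checked against RefSeq GRCm38.p6; 91 had no match. Group means were fitted with limma 3.58.1 in R 4.3.3 (lmFit, eBayes with trend, 10 residual degrees of freedom; 5 for GMT minus 0F, fitted on its own set of 8 arrays), two-sided, with Benjamini-Hochberg adjustment over all genes in each of 4 comparisons. Differences are log2 ± SE. Array number limits the precision. The script was tested on simulated data.

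Genes are named by rule: the factors and Tnnt2, the 15 largest rises and falls, and up to 4 called members a list of largest change. Other members, and those in the figures, were picked after their values were seen. The experiment, the 39 lists and the tests were chosen with earlier results of these data known. Promoters are from a RefSeq table (GRCm38.p6) that held 9132 of the tested genes; genes with several starts have several windows. Same-numbered cultures were not found to be paired (correlations of their deviations −0.06, 0.21 and 0.20). Alternatives were another set of arrays, normalization, filter, probe-set summary and spread estimate, a replicate block, each array left out, and, added after seeing the data, HNGMT replicate 1 left out of the fit.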

Additional observations from a re-analysis of the deposited data

How the results depend on the processing

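Of 158 genes tested by the naming rule, 153 were called in HGMT minus GMT and 138 kept call and direction under every alternative that tested them (152 of the 158 passed the stricter filter on low signal); the other 15 lost the call in at least 1 alternative and none reversed. The count of 2000 genes became 3152 with all 28 arrays and array set as a term, 3362 without HNGMT replicate 1, 1338 to 1963 when 1 array was left out, and 1933 to 2545 otherwise. Losing an array leaves fewer samples; the cause of the other moves was not tested. HNGMT minus NGMT called 3785 genes with all 28 arrays, 825 with only the arrays compared and 1267 to 2600 with 1 left out. The test of the difference between the 2 effects called 0 to 2 genes with 1 array left out, and GMT minus 0F 5907 to 6626. The replicate block gave 1963 genes called in HGMT minus GMT, changed none of the 158 named calls, and gave 1956 in HNGMT minus NGMT; not all of the numbers' correlations exceeded 0.1 (−0.14, −0.09 and 0.15 in the latter). Over the 39 lists 350 of 941 tested genes were called, 262 to 346 with 1 array left out. In the 250 bases before the start alone, CANNTG was in 60.8% of windows of genes that rose and 58.4% of those that fell, shorter windows holding fewer matches. Of the 78 counts of rises or falls by list, 22 moved by over 1.5 times with all 28 arrays, 21 in the fit without HNGMT replicate 1, 12 without the filter on low signal and 7 to 18 with 1 array left out. Among lists with 0 or 1 call in a direction, leaving out GMT replicate 5 gave 1 ventricular rise, 2 skeletal rises, 2 glypican falls and 2 adipocyte falls, and leaving out GMT replicate 4 gave 1 Notch fall.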

Other observations

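Of 16 tested genes of retinoid metabolism and response 3 rose and 4 fell (43.8% called, beside 17.5% of all genes). Over all 39 lists, which were written with earlier results known, 350 of 941 tested genes were called. Aldh1a2, which makes retinoic acid, rose by 0.86 ± 0.16 log2 in HGMT minus GMT, and the retinoic-acid-binding protein genes Crabp1 and Crabp2 fell by 0.78 ± 0.09 and 0.66 ± 0.12. The carrier gene Rbp4 (0.83 ± 0.25) was not called without any 1 of GMT replicates 3 and 4 and HGMT replicates 1, 2 and 3, and the rises then numbered 1 without GMT replicate 3 or any HGMT array. Of 36 tested p53 and senescence genes 4 rose and 5 fell (25% called), the falls led by Plk3 (−0.45 ± 0.11), Tnfrsf23 (−0.42 ± 0.06) and Plk2 (−0.39 ± 0.07). The rises ranged from 0 to 3 when 1 array was left out, with 0 without HGMT replicate 3, and the falls were 3 without GMT replicate 3, GMT replicate 4 or HGMT replicate 3. Mef2c and Tbx5, though delivered in GMT, read lower in GMT than in 0F, by 0.77 and 0.34 on the log2 scale.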
